A study of Mus musculus with 9 samples.

Results

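Semaphorins are guidance cues for growing axons and migrating cells. Class 3 semaphorins are secreted, most other classes span the membrane, and the class 7 protein is held at the surface by a lipid anchor. Plexins are their signalling receptors, and neuropilins are the co-receptors that most class 3 semaphorins need to act on A-type plexins. In the midbrain, semaphorins and neuropilins are known for steering the axons of dopaminergic neurons towards the forebrain.

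These genes were picked by name, as the symbols that the Ensembl identifiers of the table carry in the GRCm38 annotation, a rule that uses names and no measured value. In all, 31 of the 51912 genes in the table belonged to the family, namely 20 semaphorins, 9 plexins and 2 neuropilins. The normalized counts come from micro-dissected midbrains of C57Bl/6 mouse embryos at E14.5, in 9 libraries. *Nkx2.9*+/+ embryos (wt), *Nkx2.9*LacZ/+ embryos with a single targeted allele (het) and *Nkx2.9*LacZ/LacZ embryos without an intact allele (ko) gave 3 libraries each. In the targeted allele the reporter gene LacZ takes the place of exon 1 of *Nkx2.9*, a gene for a homeobox transcription factor, and each library pooled the material of a pair of midbrains. The comparison asks whether transcript levels in the midbrain differ when 1 or both alleles of *Nkx2.9* are lost. The sample labels and the study's methods name the midbrain as the source, while the series title speaks of cortical material. Libraries are named by their column, with 1 to 3 labelled ko, 4 to 6 het and 7 to 9 wt. The labels do not say that libraries came from separate litters, so p-values measure the spread between these libraries.

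The libraries held 1692963 to 5942192 reads on genes. A single read was worth 2.59 normalized counts in column 7 and 1.63 in column 4, the shallowest libraries, and 0.702 to 0.915 in the others. *Nkx2-9*, the targeted gene, was represented by 0 to 7 reads per library and was not lower under the label ko (4, 6 and 3 reads) than under the label wt (0, 2 and 2 reads). As reads can also fall on the part of the gene that the allele keeps, it could not check the labels, and ko, het and wt stand for the labels of the libraries. The direction of each difference between ko and wt rests here on the column headers and is uncertain to that extent. The study reported *En1*, *Pax7* and *Tph2* as upregulated in the mutant. Under these headers the same genes were lower in ko than in wt, each with an unadjusted limma p under 0.05. Which direction is right was not tested. Were the headers of the ko and wt columns exchanged, every sign between them would turn, and the calls of het against wt would be calls of het against ko. The neuronal tubulin gene *Tubb3* was high in every library (5048 to 6811 normalized counts), the midbrain genes *En1* (157 to 407) and *Th* (51.2 to 187) were present, and a list of 6 rostral hindbrain genes summed to 514 to 685 normalized counts, with *Atoh1* at 0 reads in all libraries. The dissected tissue thus held RNA of genes used to mark the rostral hindbrain as well. Column 4 had the highest value of both *En1* and *Th*, and it held the highest or lowest value of 20 of the 30 tested family genes, so that the comparisons are also given without it.

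All 31 genes had reads, and 30 reached the mean of 5 normalized counts that was required for a test. *Plxnb3*, which encodes a B-type plexin, did not reach it, with 0 to 9 reads per library. Levels between genes were compared as normalized counts per kilobase of exon. On this scale the median of the 30 genes was 47.7, against 26.4 over 13323 protein-coding genes with the same minimum, and 21 of the 31 genes lay above the latter value. Between the highest and the lowest gene of the 30, *Plxna1* and *Sema3b*, lay a range from 295 ± 32.0 to 1.70 ± 0.590 (SD, n = 9 libraries).

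**Figure D1:**
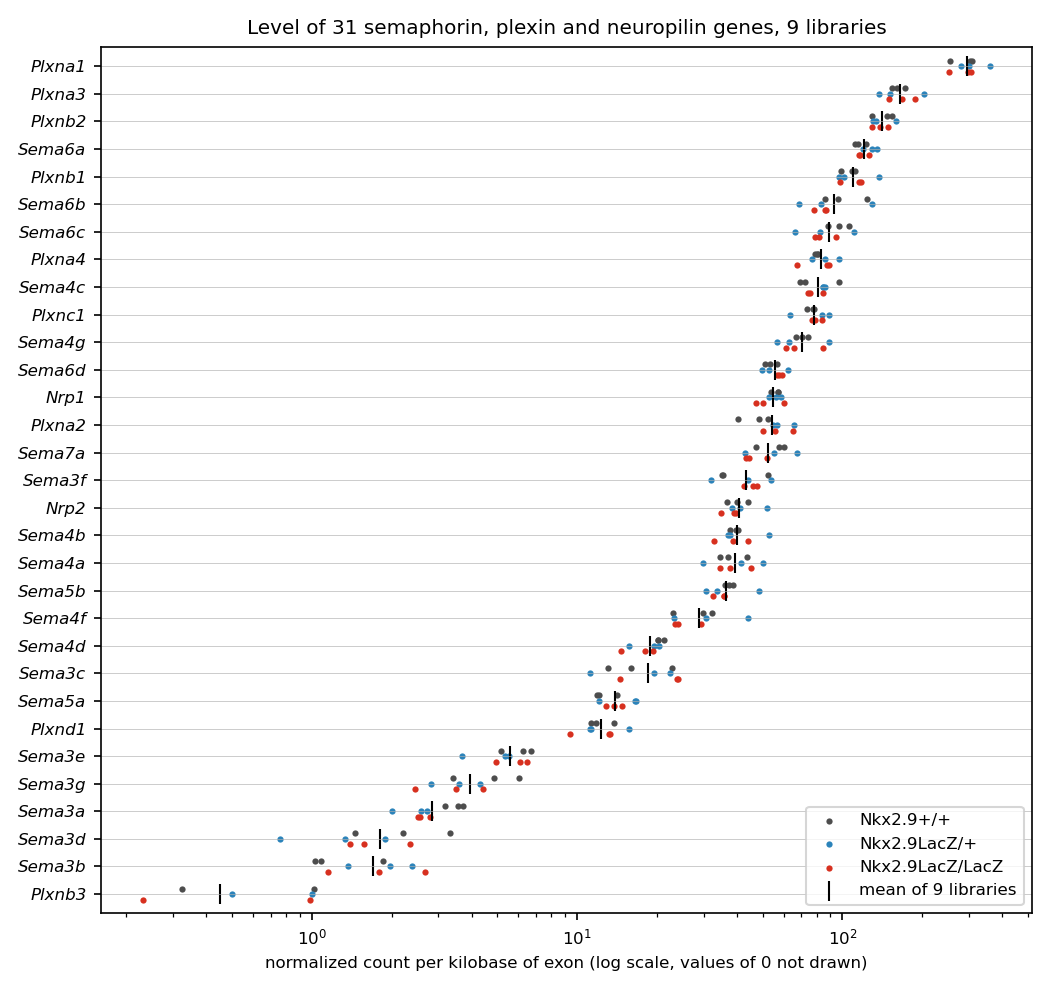
Level of each of the 31 genes in normalized counts per kilobase of exon (horizontal log axis), with 1 point for each of the 9 libraries, coloured by genotype, and a vertical tick at the mean. *Plxna1* stood highest in every library, with 253 to 359, and class 3 semaphorins other than *Sema3f* and *Sema3c* filled the lower end with *Plxnb3*.

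Plexins and semaphorins made up similar parts of the summed level of the family, and which was larger depended on the length used. Per kilobase of all exons, the 9 plexins together reached 938 ± 75.8 normalized counts per kilobase (SD, n = 9 libraries), or 50.7% of the summed level of the family, the 20 semaphorins 44.2% and both neuropilins 5.17%. Over the libraries these shares ran from 48.7% to 52.6% for the plexins and from 4.36% to 5.66% for the neuropilins. Per kilobase of the longest transcript of each gene, a length chosen after seeing the data, the semaphorins held 46.8%, the plexins 44.0% and the neuropilins 9.19%, and plexins were below semaphorins in all 9 libraries. The other levels are per kilobase of all exons.

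A-type plexins, which transduce class 3 and class 6 signals, held the largest part of the receptor level, 32.2% of the family. *Plxna1* (295 ± 32.0) was followed by *Plxna3* (165 ± 20.5), *Plxna4* (82.7 ± 8.40) and *Plxna2* (54.4 ± 7.89), all in normalized counts per kilobase. Within a library, *Plxna1* exceeded *Plxna2* by 4.55-fold to 6.36-fold. The B-type plexins *Plxnb2* (141 ± 11.7) and *Plxnb1* (109 ± 12.8), receptors for class 4 semaphorins, both stood among the highest genes, and *Plxnb3* was last of all 31 genes at 0.452 ± 0.446. *Plxnc1* (78.3 ± 7.26), the receptor of Sema7a, lay among the 10 highest genes and *Plxnd1* (12.3 ± 1.84), which binds Sema3e without a neuropilin, was the lowest plexin over the minimum count.

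Class 6 semaphorins, transmembrane ligands of A-type plexins, were the most abundant ligand class with 359 ± 25.8 normalized counts per kilobase (19.4% of the family). *Sema6a* (121 ± 7.70), *Sema6b* (93.1 ± 20.4), *Sema6c* (89.4 ± 13.9) and *Sema6d* (55.5 ± 3.997) all stood among the 12 highest genes. The 6 class 4 semaphorins summed to 278 ± 28.9, from *Sema4c* (80.9 ± 8.82) and *Sema4g* (70.2 ± 10.8) over *Sema4b* (40.1 ± 5.61), *Sema4a* (39.3 ± 6.33) and *Sema4f* (28.8 ± 6.77) to *Sema4d* (18.8 ± 2.25), a ligand of Plxnb1. *Sema7a* reached 52.3 ± 8.53. Of the class 5 semaphorins, which carry thrombospondin repeats, *Sema5b* (36.5 ± 5.07) exceeded *Sema5a* (13.9 ± 1.83) in all libraries, by 1.84-fold to 3.99-fold.

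Secreted class 3 semaphorins were low, 77.7 ± 6.57 for all 7 together and 4.21% of the family. *Sema3f*, a ligand that acts through Nrp2, supplied more than any other of them (43.2 ± 7.69), followed by *Sema3c* (18.6 ± 4.97). The other 5 were *Sema3e* (5.57 ± 0.935), *Sema3g* (3.93 ± 1.10), *Sema3a* (2.84 ± 0.546), *Sema3d* (1.81 ± 0.740) and *Sema3b* (1.70 ± 0.590). Of their co-receptors, *Nrp1* stood at 54.7 ± 4.16 and *Nrp2* at 40.7 ± 4.95, which left *Sema3f* above *Nrp2* in 6 of 9 libraries, and *Nrp1* exceeded *Nrp2* by 1.01-fold to 1.55-fold within a library. With the longest transcript as length, *Nrp1* exceeded *Nrp2* by 1.55-fold to 2.36-fold and *Sema3f* lay above *Nrp2* in 3 of 9 libraries.

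Neighbours in this order were often not separated. Of the 30 pairs of neighbouring genes, 9 kept their order in all 9 libraries, among them *Plxna1* over *Plxna3*, *Plxna3* over *Plxnb2* and *Sema3a* over *Sema3d*. The other 21 pairs changed places in at least 1 library. *Sema6d* lay above *Nrp1* in 3 of 9 libraries, and *Nrp1* above *Plxna2* in 5 of 9. Other genes share exon bases with some of these genes, the longest stretch being 970 bases (10.7% of the exons of *Plxna1*) shared with *Gm26811* on the other strand. Since the strand setting of the counting is not given in the sources used here, such reads cannot be told apart.

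In the comparison of ko with wt, none of the 30 tested genes passed the test. With limma on log2(normalized count + 1), 0 of 30 had an unadjusted p under 0.05, against 2.6% of all 16993 genes tested. After Benjamini-Hochberg adjustment, 0 of 30 passed, as did 0% of all genes. On the recovered reads, edgeR gave 1 gene with an unadjusted p under 0.05 (*Plxna2*) and DESeq2 gave 0, beside 421 and 316 of 16993 genes. Both gave 0 of the family after adjustment. The log2 fold changes of the 30 genes ran from -0.44 (*Sema3g*) to 0.42 (*Sema3b*), with 12 above and 18 below 0. Their median was -0.03, beside 0.01 over all genes, and their median size was 0.10, beside 0.15. For 27 of the 30 genes the 95% confidence interval lay within a log2 change of 1 in either direction, as it did for 67.9% of all genes. The 3 others were the scarce ligands *Sema3b*, *Sema3d* and *Sema3g*, whose intervals reached further on 1 side.

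**Figure D2:**
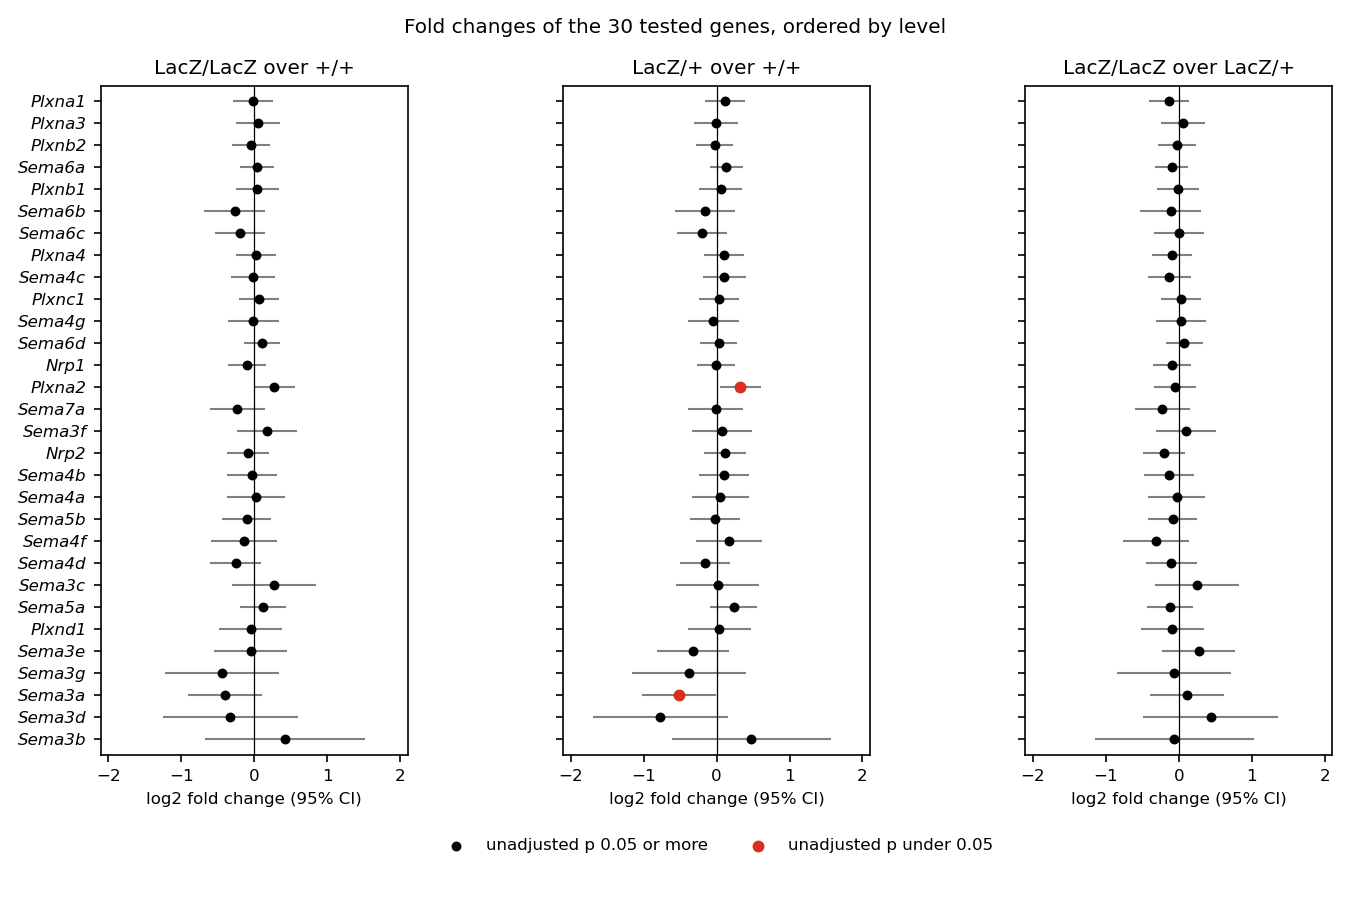
Log2 fold change (horizontal axes, points) with its 95% confidence interval (lines) of the 30 tested genes in each of the 3 comparisons, from limma, with genes ordered from the highest level at the top to the lowest. Points in red have an unadjusted p under 0.05, which holds for *Plxna2* and *Sema3a* in the middle panel and for no gene in the outer panels, and the intervals widen towards the low class 3 semaphorins.

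Values of ko and wt libraries did not overlap for 4 of the 30 genes, or 13.3%, beside 9.52% of all tested genes. Lower in all ko libraries were *Sema3a*, *Sema4d* and *Sema5b*, and higher was *Sema6d*. *Sema4d* stood at 112, 138 and 148 normalized counts in ko and at 163, 155 and 155 in wt. The gap between the nearest libraries was small, and the log2 fold change of -0.26 ± 0.16 (SE, n = 3 per genotype) did not pass (limma p = 0.137, exact permutation p = 0.1, the smallest that 3 against 3 libraries can give). *Sema6d*, whose transmembrane ligand acts on A-type plexins, had 610, 597 and 625 against 540, 596 and 565. Its log2 fold change was 0.11 ± 0.12 (SE, n = 3; limma p = 0.374, exact p = 0.1). *Sema5b* had 254, 253 and 230 against 264, 274 and 255, with a log2 fold change of -0.11 ± 0.16 (SE, n = 3; limma p = 0.514, exact p = 0.1), which turned to 0.019 when libraries were scaled by their upper quartile. That scaling moved the median of all genes from 0.01 to 0.14, so *Sema5b* lay below the median of all genes either way. It also changed the split of all genes with an unadjusted p under 0.05 from 234 higher and 207 lower to 275 higher and 76 lower.

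The summed levels of the classes overlapped between the genotypes for every class of ligands and receptors. Class 3 semaphorins summed to 81.7 ± 4.09 normalized counts per kilobase in ko, 75.1 ± 7.42 in het and 76.2 ± 7.94 in wt (SD, n = 3 each). The sum of the A-type plexins was 592 ± 64.5, 622 ± 79.0 and 577 ± 43.2 in the same order. Neuropilins summed to 90.4 ± 8.57, 99.5 ± 5.06 and 96.3 ± 2.26. No test was made on these sums.

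The comparison of het with wt gave 2 of 30 genes with an unadjusted p under 0.05 in limma, 1 higher (*Plxna2*) and 1 lower (*Sema3a*), which is 6.67% beside 2.78% of all genes. After adjustment 0 of 30 passed in limma, as did 0% of all genes. Both edgeR and DESeq2 gave 0 after adjustment and 1 (*Plxna2*) before it, beside 372 and 264 of 16993 genes before it. The same 2 genes were those whose values did not overlap, 6.67% beside 6.91% of all genes. Fold changes of the 30 genes ran from -0.77 (*Sema3d*) to 0.48 (*Sema3b*) on the log2 scale with a median of 0.03.

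*Plxna2* (ENSMUSG00000026640, chr1:194618218-194816869, plus strand, GRCm38) encodes a receptor of class 6 and, with a neuropilin, class 3 semaphorins. It had 973, 1129 and 939 normalized counts in het, 863, 960 and 1115 in ko and 900, 833 and 694 in wt. All 3 het libraries lay above all wt libraries, while column 1 of ko lay within the wt range. The log2 fold change of het over wt was 0.33 ± 0.13 (SE, n = 3), or 1.26-fold with a 95% confidence interval of 1.03 to 1.53 (limma p = 0.0263, adjusted p = 1.00, exact permutation p = 0.1). Without column 5 it was 0.25 and without column 9, the lowest wt library, 0.22, and neither passed before adjustment.

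For ko over wt, the log2 fold change of *Plxna2* was 0.28 ± 0.13 (SE, n = 3; limma p = 0.0563, exact p = 0.2), the smallest p of the family in that comparison. It is named for that, after its values were seen. The unadjusted p came under 0.05 without column 1 (0.36), column 4 (0.28) or column 7 (0.36). The value was 0.18 without column 3 and 0.17 without column 9, both short of the threshold. Both comparisons share the 3 wt libraries, so they are not independent of each other. *Plxna2* in ko and het differed by -0.05 (limma 95% confidence interval -0.34 to 0.23).

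*Sema3a* (ENSMUSG00000028883, chr5:13125414-13602565, plus strand, GRCm38) encodes a secreted repellent that acts through Nrp1 and A-type plexins. It was scarce, with 51.7, 49.1 and 44.2 normalized counts in wt, 35.9, 37.6 and 27.7 in het and 35.4, 34.8 and 38.6 in ko, from 20 to 70 reads per library. Each wt library lay above all 6 libraries with a targeted allele. The log2 fold change was -0.52 ± 0.24 (SE, n = 3) in het, or 0.700-fold with a 95% confidence interval of 0.493 to 0.992 (limma p = 0.0455, adjusted p = 1.00, exact permutation p = 0.1). In ko it was -0.40 ± 0.24 (SE, n = 3; limma p = 0.109, exact p = 0.1), again against the same wt libraries. The call in het was close to the threshold, and it was lost when any of columns 1, 2, 3, 6, 7, 8 or 9 was left out. Its values then ranged from -0.58 without column 9 to -0.385 without column 6.

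In bulk tissue, fewer cells of a type and less RNA per cell cannot be told apart, so markers of other cells are given beside *Sema3a*. Of 7 meningeal marker genes, 5 could be tested. *Col1a1* was lower in het than in wt (-0.77 on the log2 scale, limma p = 0.00766, exact p = 0.1), and *Foxc1* was lower in ko than in wt (-0.99, limma p = 0.00677, exact p = 0.1). Both adjusted p-values were 1.00. The 7 markers summed to 197 to 219 normalized counts in het, 182 to 283 in ko and 237 to 343 in wt, and *Aldh1a2*, a defining marker, was 0 in 8 libraries and 0.915 in the other one. The median log2 fold change of the tested markers was -0.28 in ko and -0.30 in het against wt, and not all went down. *Dcn* had 17.9, 6.83 and 6.53 normalized counts in het and 0, 4.21 and 10.3 in wt. Lists for endothelium (10 genes), pericytes (6), neurons (7) and radial glia (7) held 0 genes with an unadjusted limma p under 0.05 in any comparison. At that level and by the labels, *En1*, *Pax7* and *Pitx3* of 11 midbrain genes, *Tph2* and *Slc6a4* of 5 rostral hindbrain genes, *Olig1* of 5 genes of the oligodendrocyte lineage and *Kl* of 3 choroid plexus genes that could be tested were lower in ko than in wt, and *Foxc1*, *Tph2* and the microglial gene *C1qb* were lower in ko than in het. Of all tested genes, 2.6% reached that level in ko against wt, 2.78% in het against wt and 2.64% in ko against het, in either direction. For *En1*, *Pax7* and *Tph2* the study reported the opposite direction between mutant and wt. The part of these markers in the values of *Sema3a* was not tested.

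**Figure D3:**
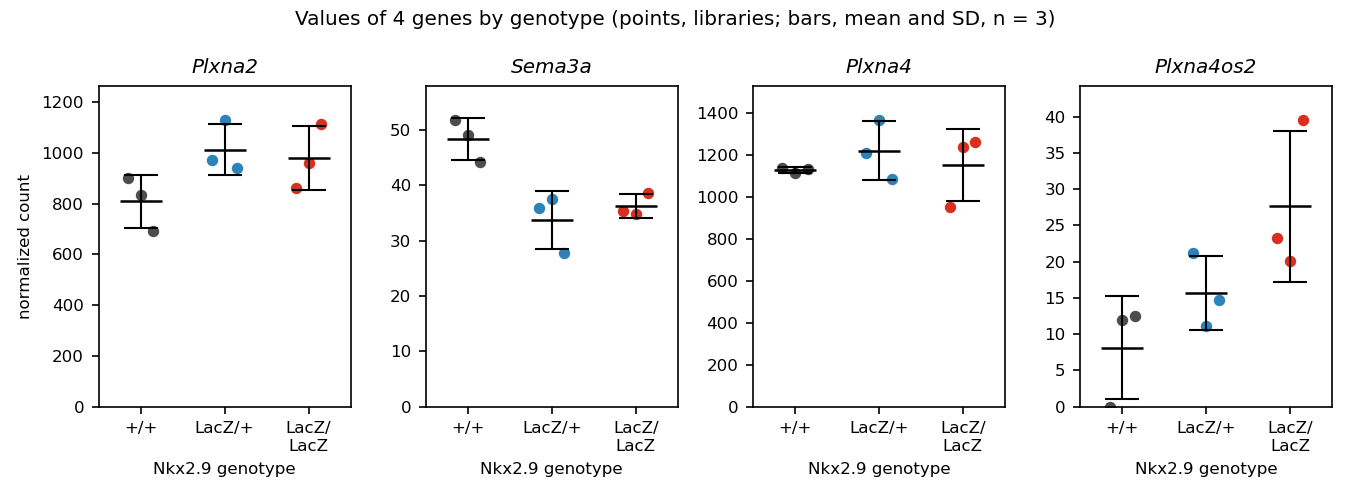
Normalized counts (vertical axes from 0) of *Plxna2*, *Sema3a*, *Plxna4* and the antisense gene *Plxna4os2* in the 3 genotypes, with points for libraries and bars for the mean and SD (n = 3). *Sema3a* lay at 44.2 to 51.7 in wt and at 27.7 to 38.6 in the other libraries, and *Plxna4os2* at 20.1 to 39.5 in ko and 0 to 12.5 in wt.

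The bases ahead of the start sites of these 2 genes are shown since only they had an unadjusted limma p under 0.05 in any of the 3 comparisons of the family with all libraries in the fit. They come from RefSeq promoter windows (GRCm38.p6, plus strand), cut to the bases ahead of the coding transcripts, at chr1:194619579-194619824 for *Plxna2* and chr5:13396534-13396783 for *Sema3a*, 5′ to 3′. The window of *Plxna2* lies inside a longer transcript of the gene with a retained intron, and that of *Sema3a* in an intron of a longer transcript of that gene.
Plxna2: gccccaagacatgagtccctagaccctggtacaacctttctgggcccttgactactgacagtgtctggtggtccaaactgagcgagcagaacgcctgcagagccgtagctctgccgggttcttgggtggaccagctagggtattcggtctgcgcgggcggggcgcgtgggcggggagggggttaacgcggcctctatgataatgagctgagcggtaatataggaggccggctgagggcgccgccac
Sema3a: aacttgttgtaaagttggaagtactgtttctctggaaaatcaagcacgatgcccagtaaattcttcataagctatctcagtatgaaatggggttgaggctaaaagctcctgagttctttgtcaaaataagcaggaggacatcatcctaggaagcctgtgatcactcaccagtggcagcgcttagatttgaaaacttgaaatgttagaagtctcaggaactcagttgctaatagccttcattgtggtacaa
The stretch of *Plxna2* is rich in G and C (62.6%) and holds 17 CpG dinucleotides, and that of *Sema3a* is not (40.8%, 2 CpG). Both were searched on either strand for CAAGTG, the core of sites bound by homeobox proteins of the Nkx2 group, which also has the form of an E-box, CANNTG. Neither held it, so no base is in capitals. Of 37 windows of 26 family members, 1 held it (*Sema3c*, 2.70%), beside 11.6% of 32851 windows of all genes, each counted over 250 bases.

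*Plxna3* and *Plxnb3* lie on the X chromosome, and the libraries differed in *Xist*, the RNA that marks an inactive X. *Xist* had 4633, 4607 and 5182 normalized counts in ko, 79.9, 14.52 and 2929 in het and 4342, 2580 and 47.1 in wt, so it was high in all ko libraries and mixed in the others. Transcripts of the Y chromosome (*Uty*, *Kdm5d*, *Ddx3y* and *Eif2s3y*) had 0 to 2 reads in all ko libraries and in columns 6 and 7, and 50 to 476 reads in columns 4, 5, 8 and 9. The embryos of the ko libraries thus differed in sex from those of several het and wt libraries, and the part of sex in the differences between genotypes was not tested beyond the fit with *Xist* as a covariate, in which *Plxna2* alone of the family had an unadjusted p under 0.05 (het against wt). *Plxna3*, a receptor for Sema3f, had 1182, 1324 and 1473 normalized counts in ko and 1350, 1267 and 1209 in wt. The ranges overlapped, and its log2 fold change was 0.05 ± 0.14 (SE, n = 3; limma p = 0.717, exact p = 0.7). Without column 3 it was -0.026. *Plxnb3* had 2, 7 and 0 reads in ko, 4, 0 and 4 in het and 0, 3 and 9 in wt. In a fit without the minimum count its log2 fold change was -0.12 with a 95% confidence interval of -2.002 to 1.77 (limma), so that no change was detectable at this depth.

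*Plxna4*, a receptor of Sema3a and of class 6 semaphorins, was steady in wt, with 1138, 1112 and 1133 normalized counts, and more spread in ko, with 952, 1238 and 1260. Its log2 fold change between these genotypes was 0.02 ± 0.13 (SE, n = 3; limma p = 0.894, exact p = 1.0), with a 95% confidence interval of -0.26 to 0.29. It turned to -0.042 without column 2 and to -0.054 without column 3, and was 0.15 without column 1.

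Inside the *Plxna4* gene, on the other strand, lie the 3 long non-coding genes *Plxna4os1*, *Plxna4os2* and *Plxna4os3*. *Plxna4os2* (chr6:32451170-32454750, plus strand, GRCm38) shares no exon base with *Plxna4*. It had 23.3, 20.1 and 39.5 normalized counts in ko, 21.2, 11.1 and 14.7 in het and 0, 11.9 and 12.5 in wt. By the column headers, which could not be checked, all ko libraries lay above all wt libraries. The study itself listed this gene with a negative fold change, the opposite direction. The log2 fold change was 2.30 ± 0.75 (SE, n = 3; limma p = 0.00790, adjusted p = 1.00, exact p = 0.1), and much of it came from column 7, the shallowest library, which had 0 reads. Without that column it was 1.06 ± 0.40 (SE), and with edgeR and DESeq2 on the reads of all libraries it was 1.46 and 1.503. An unadjusted p under 0.05 was found in 19 of the 19 alternatives that gave a value. *Plxna4os1* (-1.02, limma p = 0.2004, exact p = 0.6) and *Plxna4os3* (-0.37, limma p = 0.642, exact p = 0.4) had a mean below 10 normalized counts in each genotype, and neither passed. Without a known strand setting, reads of unspliced *Plxna4* transcripts and of these genes cannot be told apart, and the sources differ on whether mRNA was selected (the labels) or ribosomal RNA removed (the methods).

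Proteins that work with these receptors were read from a list of 47 genes, which held co-receptors such as *L1cam* and *Met*, the cytoplasmic mediators *Crmp1*, *Dpysl2* and *Mical1*, and small GTPases and their regulators. Of the 46 tested, 0 had an unadjusted limma p under 0.05 in ko against wt, beside 2.6% of all genes, with a median log2 fold change of 0.00. In het against wt, 2 of 46 were higher, beside 2.78% of all genes called in either direction, the small GTPase genes *Rras* (a GTPase that plexins switch off) and *Rnd1* (a GTPase that binds the plexin cytoplasmic domain), named after their values were seen. *Rras* was low, with 13.0, 11.1 and 15.5 against 10.3, 2.81 and 5.89 normalized counts (log2 fold change 1.08, limma p = 0.0424, exact p = 0.1). Its p was under 0.05 in 9 of 19 alternatives. *Rnd1* had 79.9, 40.1 and 28.6 against 0, 37.9 and 33.9. Its log2 fold change of 2.06 (limma p = 0.0454, exact p = 0.4) rested on the 0 of column 7 and was 0.33 without it, 0.71 with edgeR and 0.98 with DESeq2.

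Between ko and het, none of the tested genes passed either. In limma, 0 of 30 genes had an unadjusted p under 0.05, beside 2.64% of all genes, and 0 passed after adjustment, beside 0% of all genes. edgeR and DESeq2 likewise gave 0 before and after adjustment, beside 451 and 323 of 16993 genes before it. The values of no gene were separate between these genotypes, beside 8.71% of all genes. Fold changes ran from -0.31 (*Sema4f*) to 0.44 (*Sema3d*) on the log2 scale, with 10 above and 20 below 0.

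Among the het libraries, column 4 stood apart. It held the highest value of the 9 libraries for 15 of the 30 tested genes and the lowest for 5, and its mean absolute deviation from the mean of the others was 0.35 on the log2 scale, against 0.15 to 0.22 for the others. The deviations of column 4 followed the GC content of the transcripts. Over the 30 genes, which share this library, Pearson's r between deviation and GC content was 0.81 (Spearman's rho 0.77), and over 16951 genes r was 0.43. Genes with more than 60% GC such as *Sema6b* (63.5%) and *Plxnd1* (60.8%) were high in column 4, and *Sema3d* (39.2%) and *Sema3e* (42.0%) were low. For column 5, of the same genotype, r over the 30 genes was -0.60. The part of GC content in any difference between genotypes was not tested.

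**Figure D4:**
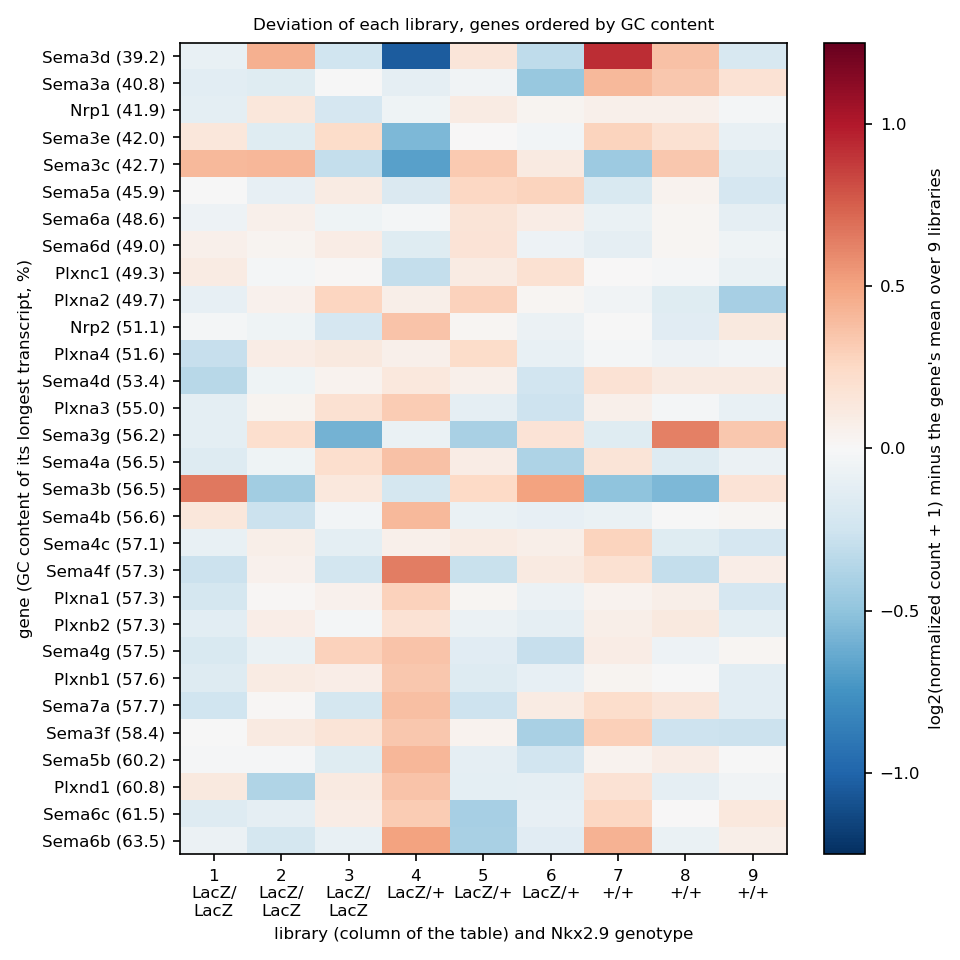
Deviation of each library (vertical strips) from the mean of the 9 libraries, in log2(normalized count + 1), for the 30 tested genes (horizontal bands), ordered from low GC content at the top to high at the bottom. Column 4, labelled het, runs from blue (lower) at the top to red (higher) at the bottom, with an r of 0.81 between its deviations from the other libraries and GC content.

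Leaving out column 4 brought 5 genes under an unadjusted p of 0.05 in het against wt, beside 936 of 16996 genes in the same fit. These were *Plxna2*, *Sema3a*, *Sema5a* (0.39), *Sema6b* (-0.42) and *Sema6c* (-0.39), and none passed after adjustment (limma, adjusted p = 0.844 for each). With column 4 in the fit, *Sema6c* had 654, 393 and 487 normalized counts in het and 628, 525 and 576 in wt, so that column 4 alone exceeded the wt range and the others lay below it. *Sema5a* had 227, 308 and 311 against 225, 265 and 222. Without column 5, *Sema4f* (-0.53) and *Sema7a* (-0.39) had an unadjusted p under 0.05 in ko against het, beside 741 of 17012 genes (limma, adjusted p = 0.875 for each). *Sema3d* came under the threshold in het against wt without column 5 (-1.05, beside 650 of 17012 genes) and without column 9 (-1.05, beside 600 of 16977 genes), with limma adjusted p = 0.986 and 1.00. With all libraries in the fit it was -0.77.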

How the data were processed

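RNA of E14.5 midbrains was sequenced in 9 libraries. According to the methods and the submitters' processing notes, the authors aligned reads with HISAT2 to GRCm38/mm10, counted them per gene with featureCounts and divided the counts by a DESeq2 size factor per library. Each deposited value is such a normalized count (a signal without a unit). Tool versions, annotation release and strand setting are not given in the sources used here. A further 3 deposited tables hold log2 fold changes and p-values of the authors' own DESeq2 comparisons, and none of them was used.

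Columns carry a genotype but no replicate number. Of the identifiers, 51719 matched GENCODE M21 (GRCm38), which gave names, positions and exon lengths. The main test was limma 3.58.1 (R 4.3.3) on log2(normalized count + 1) in 1 two-sided fit of all 9 libraries, in which the variance could follow the level. The 16993 genes with a mean of at least 5 were tested and adjusted together (Benjamini-Hochberg). On this scale the added 1 pulls fold changes of low genes towards 0, while a library at 0 reads can enlarge them relative to a count model. An exact permutation test was run beside each named fold change. Intervals are at 95% and n = 3 per genotype limits them together with depth. Whole reads were recovered from the steps of each library for 100% of 210686 values above 0 (within 0.01 reads), and edgeR 4.0.16 on them called 0 genes after adjustment in each comparison (421, 372 and 451 with an unadjusted p under 0.05 for ko against wt, het against wt and ko against het). DESeq2 1.42.0 was a further alternative and called 0, 1 and 0. The scripts were tested on simulated data. Libraries of a genotype differed by more than sampling noise.

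A fold change is given for genes with an unadjusted p under 0.05, for those whose values did not overlap between ko and wt, and for *Plxna3*, *Plxnb3* and *Plxna4*. The other members are given by counts and ranges. Members and lists were chosen with earlier results of these data known. Alternatives were other pseudocounts, minimum counts and scalings, no trend, *Xist* as a covariate, only the genotypes compared, edgeR, DESeq2 and leaving out libraries. Plots used matplotlib 3.10.9 (Python 3.11.15).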

Additional observations from a re-analysis of the deposited data

How the results depend on the processing

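After adjustment, 0 of the tested genes of the family passed in any comparison under any of the 20 alternatives. The number with an unadjusted p under 0.05 in ko against wt, 0 as reported, was 1 with only the genotypes compared, with upper-quartile scaling and with edgeR (*Plxna2* each time, beside 641 of 17085, 351 of 17017 and 421 of 16993 genes) and 1 without a variance trend (*Sema3a*, beside 551 of 16993), and 0 to 1 when single libraries were left out (beside 283 to 835 genes). In het against wt it was 2, beside 473 genes. It was 1 with a pseudocount of 5 (beside 477 genes), no minimum count (1137), only the genotypes compared (283) or no variance trend (666). With *Xist* as a covariate (298), edgeR (372) or DESeq2 (264) it was 1 as well. It was 0 with upper-quartile scaling (293) and 1 to 5 when single libraries were left out (376 to 936). Between ko and het it was 0, beside 449 genes, and 0 to 2 when single libraries were left out (beside 293 to 741 genes). A further alternative, chosen after seeing the data, left out the 2 shallowest libraries together and gave 2 (*Plxna2*, *Sema3f*), 5 (*Plxna2*, *Sema4c*, *Sema5a*, *Sema6b*, *Sema6c*) and 2 (*Plxna3*, *Sema5a*) in the 3 comparisons, beside 705, 852 and 972 of 16993 genes. The cause of these moves was not tested. *Sema3a* in het kept its p under 0.05 in 5 of 20 alternatives and *Plxna2* in 16 of 20, both with the same direction in all of them. In ko against wt, the log2 fold change turned its sign for *Sema5b* with upper-quartile scaling (0.019), for *Plxna3* without column 3 (-0.026) and for *Plxna4* without columns 2 (-0.042) or 3 (-0.054). Over single libraries left out, *Plxna4* ranged from -0.054 to 0.15. Upper-quartile scaling moved the median of all genes to 0.14 in that comparison and to 0.13 between ko and het. Left without a minimum count, 1135 genes had an unadjusted p under 0.05 in ko against wt. With 1 library of a genotype left out, the remaining ones are assumed to vary like those of the other genotypes. The 10 highest genes per kilobase kept 8 members with the longest transcript as length and 10 with upper-quartile scaling or any library left out. No paired analysis was possible because the columns carry no replicate number. The fewest reads fell on *Plxnb3*, *Sema3b*, *Sema3d* and *Sema3g*, with at most 39 in any library.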
